A study of Mus musculus with 31 samples.

Results

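Ly6C-high monocytes from Lewis lung carcinoma (LLC) tumors were compared with Ly6C-high monocytes from the blood of healthy mice, across every expressed gene, to describe the net end state of the tumor cells. The comparison rests on 6 RNA-seq libraries, 3 from LLC tumor and 3 from healthy blood, chosen by their labels out of 9 RNA-seq libraries and 31 samples in the series. The remaining 3 RNA-seq libraries, from the blood of mice that carried LLC tumors (LLC blood), were used to ask how much of each net change was already present in the circulation. All mice were C57BL/6J. The tumor hosts carried LLC, a transplantable mouse lung carcinoma line, under the skin, and the healthy mice carried no tumor. Cells in all 3 groups had been sorted as CD11b+, Ly6G-, Ly6C-high and MHC-II-, with RNA taken by TRIzol and made into TruSeq libraries. The labels give no animal, age, sex, tumor size or sequencing batch per RNA-seq library, and a batch in step with the groups cannot be told apart. For the same reason the p-values measure the spread between these libraries, which may be technical. The count table heads the blood libraries with the letters BM; they were taken as blood monocytes because the sample titles name blood.

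Ly6C-high (classical) monocytes are short-lived blood cells that leave the bone marrow through the chemokine receptor Ccr2 and enter inflamed tissue and tumors. There they can turn into macrophages, a change in which blood monocyte genes fall and genes for scavenger receptors, lysosomal enzymes and secreted factors rise. Tumor tissue is often short of oxygen and glucose, and the transcription factor HIF-1 then raises glycolytic enzymes, glucose transporters and Vegfa. Monocyte-derived cells of tumors are known as sources of chemokines that draw neutrophils, of prostaglandins, of arginase and of enzymes that remodel the matrix.

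Total counts were 11075725 to 11572942 in the 3 tumor libraries, 13992712 to 16310639 in healthy blood and 10457492 to 20706412 in LLC blood. Across genes, which are not independent replicates, Pearson correlations of log2 levels were 0.755 to 0.835 between healthy blood and tumor libraries. They were 0.985 to 0.989 within healthy blood and 0.960 to 0.988 within tumor. Levels below are counts scaled to a common library total (CPM) over all entries of the table. The floor, taken as 3 counts in a library, lay between 0.145 and 0.287 CPM and covers counting error only. The fit tested 12337 genes.

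Of the 12337 tested genes, 8208 (66.5%) were called between tumor and healthy blood by edgeR's quasi-likelihood test at a Benjamini-Hochberg adjusted p under 0.05. The calls were 4136 genes higher in tumor (33.5%) and 4072 lower (33%). With a change of at least 2-fold added, 3989 genes (32.3%) remained, 2426 higher (19.7%) and 1563 lower (12.7%). Large changes were mostly rises: 996 genes were at least 8-fold higher and 206 at least 8-fold lower, and 404 were at least 64-fold higher and 39 at least 64-fold lower. Of those 404, 242 had 3 counts or fewer in every healthy library, 69 of them with no count at all, so the fitted size of their change depends on the prior count. The lowest tumor library lay above the highest healthy library for 3324 genes (26.9%), and the highest tumor library lay below the lowest healthy library for 5388 genes (43.7%). Genes at least 2-fold higher held 7.42% to 7.93% of the counts in the healthy libraries, 9.58% to 10% in LLC blood and 30.3% to 31.9% in tumor. Genes at least 2-fold lower held 18.4% to 18.6% in healthy blood and 5.54% to 6.03% in tumor.

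**Figure D1:**
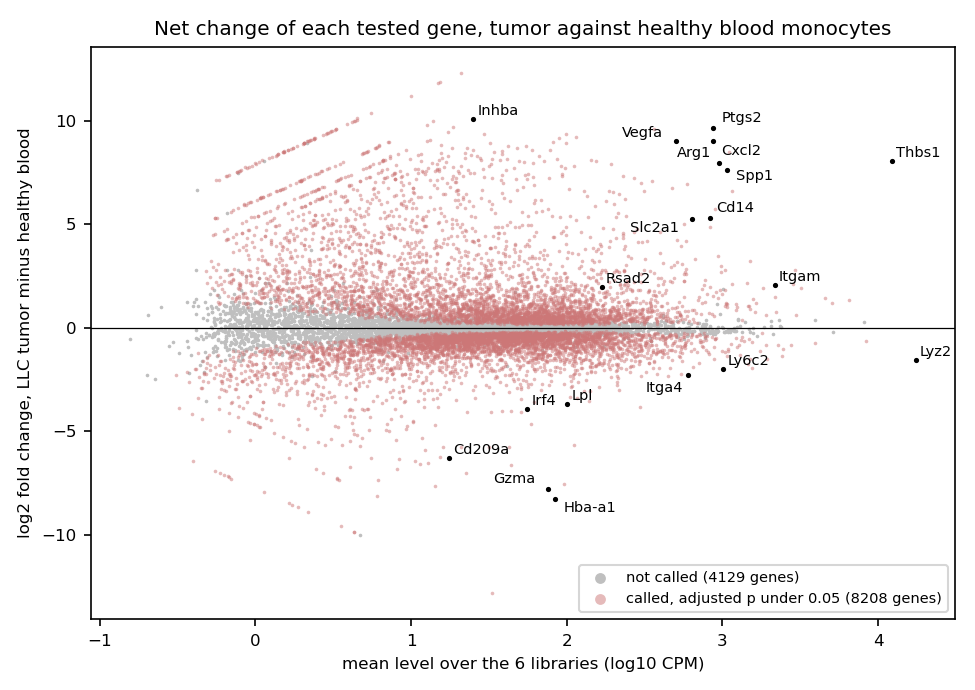
Each point is 1 of the 12337 tested genes; the x axis is the mean level over the 6 libraries (log10 CPM) and the y axis the log2 fold change of LLC tumor minus healthy blood, with the 8208 called genes in red. Rises reach further from 0 than falls, with 404 genes past 64-fold above and 39 below.

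The labelled cell type was checked against 8 monocyte and macrophage markers. Of the 8, 3 were higher in tumor and 4 lower, where 33.5% of all tested genes were higher and 33% lower. The summed level of the 8 markers in CPM was 33750 to 36760 in healthy blood and 15220 to 19810 in tumor. Lyz2 held most of that sum. Without it, a split chosen after seeing the data, the other 7 markers summed to 8038, 7759 and 7684 CPM in healthy blood 1, 2 and 3 and to 10506, 8183 and 8317 CPM in tumor 1, 2 and 3, where the tumor libraries were the higher ones. Lyz2, a lysozyme gene of myeloid cells, was at 25713, 26272 and 29077 CPM in healthy blood and at 9308, 7529 and 6898 CPM in tumor (log2 fold change -1.57 ± 0.21 SE, adjusted p 0.00015). Cd14, a co-receptor for bacterial lipopolysaccharide, was at 52.2, 49.8 and 40.8 CPM in healthy blood and at 2009.8, 1378 and 1444 CPM in tumor (log2 fold change 5.29 ± 0.25 SE, adjusted p 3.29e-07). Both genes are members of the marker list and were named after their values had been seen. The counts of Lyz2, Ly6c2 and Ly6c1 were split with other genes in all 9 libraries. Among the genes of the sort itself, Itgam (CD11b) was at 949, 922 and 893 CPM in healthy blood, at 1337, 1490.0 and 1490.5 CPM in LLC blood and at 3719.8, 3303 and 3193 CPM in tumor (log2 fold change 2.08 ± 0.15 SE, adjusted p 3.16e-06). Ly6c2, which encodes Ly6C, was at 1571, 1709 and 1728 CPM in healthy blood, at 1237, 1099 and 1121 CPM in LLC blood and at 472, 272 and 328 CPM in tumor (log2 fold change -2.01 ± 0.25 SE, adjusted p 8.57e-05). Every tumor library was thus above every healthy library for Itgam and below every healthy library for Ly6c2, although cells of both sources had been sorted as Ly6C-high. H2-Aa, a chain of MHC class II, was at 116, 255 and 180.4 CPM in healthy blood and at 23.9, 18.7 and 59.5 CPM in tumor (log2 fold change -2.27 ± 0.46 SE, adjusted p 0.00185). H2-Ab1 and Ly6c1 had log2 fold changes of -1.11 (adjusted p 0.0135) and -0.67 (adjusted p 0.0333). The libraries overlapped for H2-Eb1 (log2 fold change -1.48, adjusted p 0.0396). Ly6c1 lost its call when any of the 3 healthy libraries, tumor 1 or tumor 3 was left out (adjusted p 0.0548 to 0.114). H2-Eb1 lost its call without healthy blood 2 (0.152), healthy blood 3 (0.053), LLC blood 3 (0.0546), tumor 1 (0.0765) or tumor 2 (0.104). In bulk libraries, fewer cells of a type and less RNA per cell cannot be told apart.

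Markers of other cells differed between the 2 sources. The 9 fibroblast markers summed to 6.45 to 18.1 CPM in the healthy libraries and to 997.1, 3694 and 4204 CPM in tumor 1, 2 and 3. Of these markers 8 were called higher and none was at the floor in tumor; Col3a1 held the most counts, at 713, 2801 and 3099 CPM. The same markers summed to 442.3 CPM in LLC blood 1 and to 3.87 and 4.73 CPM in the other two LLC blood libraries. Markers of natural killer (NK) cells summed to 207.1 to 505.6 CPM in healthy blood, 28.4 to 52.2 CPM in LLC blood and 2.25 to 5.14 CPM in tumor, with Ncr1, Eomes and Klra8 at the floor there. Erythroid markers had sums of 222.5 to 650.1 CPM in healthy blood against 1.26 to 3.46 CPM in tumor. T cell markers had sums of 40.5 to 190.6 CPM in healthy blood against 106.5 to 133.3 CPM in tumor, but the tumor sum was nearly all Il7r (121, 104 and 99.5 CPM), while Cd3e was at the floor. Markers of epithelial and LLC cells had sums of 8.15 to 9.79 CPM in healthy blood against 63.4 to 102.0 CPM in tumor. Of the 4 tested members of that list 3 were higher and 1 lower (median log2 fold change 5.80), against 33.5% and 33% of all tested genes. Epcam, Krt19, Nkx2-1 and Sftpc were at the floor in healthy blood and in tumor. The part of these cells in the results was not tested.

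**Figure D2:**
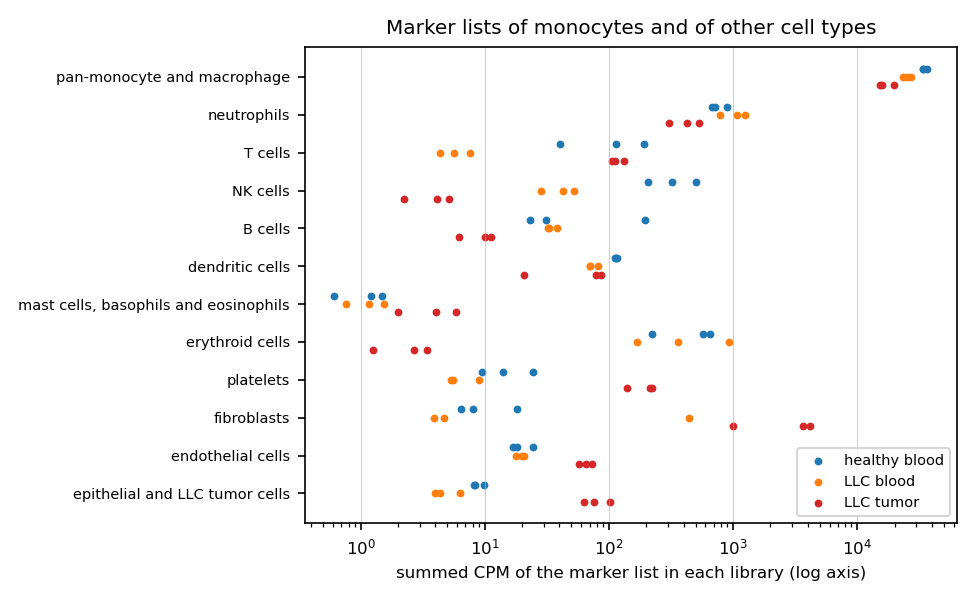
Summed CPM (log axis) of each marker list in each of the 9 libraries, with healthy blood in blue, LLC blood in orange and LLC tumor in red. Fibroblast markers are at 997.1 to 4204 CPM in tumor and NK cell markers at 207.1 to 505.6 CPM in healthy blood.

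Tumor 1 differed from the other two tumor libraries in these and many other strongly raised genes. Its level relative to the mean of tumor 2 and 3, on CPM before TMM scaling, was 0.077 to 0.414 for the 9 fibroblast markers. The TMM factors were 0.798, 1 and 0.968 in tumor 1, 2 and 3. Every such ratio is therefore lower than on the TMM scale of the fold changes. Among the 404 genes raised at least 64-fold the median of this ratio was 0.242, and 312 of them (77.2%) were below 0.5. Among the 981 genes raised 2-fold to 4-fold the median was 0.795, near the TMM factor of tumor 1 (0.798). The members raised at least 2-fold of several myeloid lists had higher medians, with 1.63 for cytokines, 1.46 for CC chemokines, 1.26 for glycolysis and 1.07 for macrophage maturation. Lower medians were found for the cell cycle list (0.499) and the list of matrix proteases and inhibitors (0.813), among others. Without tumor 1 the fit called 9423 genes, and 7935 of the 8208 genes were among them.

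**Figure D3:**
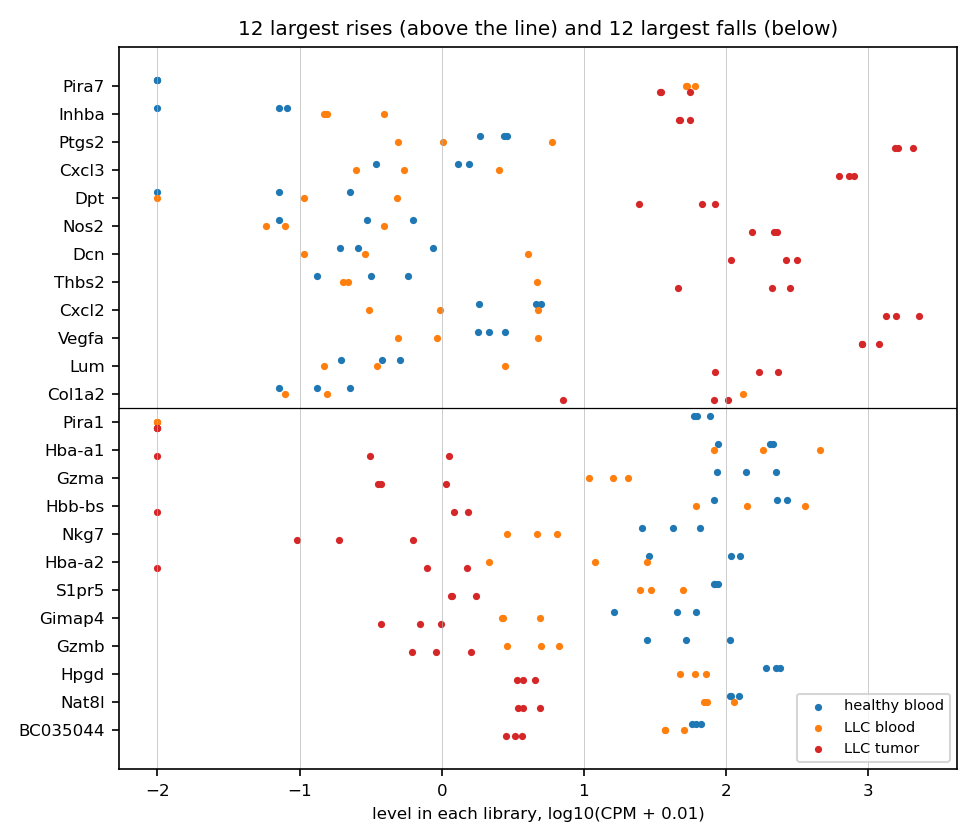
Level of the 12 genes with the largest rise and the 12 with the largest fall in each library, as log10(CPM + 0.01), with healthy blood in blue, LLC blood in orange and LLC tumor in red. For the 12 rises every red point lies to the right of every blue point, and for the 12 falls to the left; orange points lie near the blue ones for most rises, with Pira7 as an exception, and between the groups for Gzma, Gzmb and Nkg7.

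Neutrophil-attracting chemokines and Ptgs2, a gene of prostaglandin synthesis, were among the largest rises. Over all tested genes 33.5% were called higher and 33% lower, the shares beside which each list count below stands. Of the 13 genes of the CXC chemokine list 12 were tested, 11 of them higher and 0 lower (median log2 fold change 5.28, or 4.83 with members at the floor set to their bound, against -0.0025 for all tested genes). In LLC blood the same list had a median of -1.28 against healthy blood, where 0 were higher and 3 lower; 23.6% of all genes were called in that comparison, 14% higher and 9.61% lower. With at least 2-fold added, 6.23% were called there, 3.24% higher and 2.99% lower, against 28.7% between tumor and LLC blood. Pf4 and Ppbp, members of this list, are also platelet markers. Cxcl2 (ENSMUSG00000058427), a ligand of the neutrophil receptor Cxcr2, was at 4.95, 1.81 and 4.59 CPM in healthy blood, at 4.75, 0.2996 and 0.968 CPM in LLC blood and at 2275, 1345 and 1565 CPM in tumor (log2 fold change 9.05 ± 0.73 SE, adjusted p 5.54e-06). Cxcl3 (ENSMUSG00000029379), its close relative, was at 1.55, 0.335 and 1.296 CPM in healthy blood, at 2.52, 0.5305 and 0.2398 CPM in LLC blood and at 738, 799 and 628 CPM in tumor (log2 fold change 9.61 ± 0.55 SE, adjusted p 7.86e-07). Cxcl1 (ENSMUSG00000029380) was at 0.429, 0.246 and 0.307 CPM in healthy blood, at 0.287, 0 and 0.0483 CPM in LLC blood and at 93.99, 75.7 and 77.6 CPM in tumor (log2 fold change 8.15 ± 0.35 SE, adjusted p 2.16e-07). All 3 were below 10 CPM in every blood library and far above that in every tumor library. Cxcl2 and Cxcl3 had counts split with other genes in all 9 libraries, so their single levels are uncertain. Ptgs2 (ENSMUSG00000032487), the inducible cyclooxygenase that starts prostaglandin synthesis, was at 2.72, 1.84 and 2.88 CPM in healthy blood, at 5.93, 0.484 and 1.01 CPM in LLC blood and at 2061, 1545 and 1631 CPM in tumor (log2 fold change 9.66 ± 0.69 SE, adjusted p 2.67e-06). LLC blood 1 had the highest Ptgs2 among the blood libraries and every tumor library lay far above it.

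The promoters of Cxcl1, Cxcl2 and Cxcl3 are shown because these neighbouring genes rose together and share a run of letters. Each line gives the 250 bases before the start site from RefSeq (GRCm38.p6, plus strand), 5′ to 3′; the windows are chr5:90890995-90891244 for Cxcl1, chr5:90903649-90903898 for Cxcl2 and chr5:90785851-90786100 for Cxcl3. Capitals mark the shared run, which holds 2 overlapping matches to the NF-kB consensus.
Cxcl1: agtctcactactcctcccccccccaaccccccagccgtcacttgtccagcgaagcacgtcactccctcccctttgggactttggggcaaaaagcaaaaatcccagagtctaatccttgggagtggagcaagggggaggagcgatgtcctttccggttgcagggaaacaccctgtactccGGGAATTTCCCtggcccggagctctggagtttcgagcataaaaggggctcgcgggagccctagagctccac
Cxcl2: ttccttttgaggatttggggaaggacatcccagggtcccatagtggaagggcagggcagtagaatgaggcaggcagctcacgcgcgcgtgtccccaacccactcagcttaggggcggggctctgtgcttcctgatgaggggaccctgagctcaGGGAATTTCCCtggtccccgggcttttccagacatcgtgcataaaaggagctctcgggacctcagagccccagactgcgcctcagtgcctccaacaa
Cxcl3: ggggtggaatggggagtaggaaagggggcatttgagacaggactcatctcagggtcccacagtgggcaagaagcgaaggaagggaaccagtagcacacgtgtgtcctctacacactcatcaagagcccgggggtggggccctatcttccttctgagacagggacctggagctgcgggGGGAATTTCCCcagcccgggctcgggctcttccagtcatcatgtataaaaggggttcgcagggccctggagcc
The run GGGAATTTCCC starts 71 bases before the start site in Cxcl1, 97 in Cxcl2 and 73 in Cxcl3. It occurs in 12 of 32851 promoter windows of this length (0.0365%). The looser NF-kB consensus, searched on both strands, was found in 7.25% of all windows, in 10.5% of the windows of genes at least 2-fold higher in tumor and in 7.96% of those at least 2-fold lower. It was in 8.45% of the windows of the other tested genes. RefSeq promoters were matched by symbol for 1772 of the 2426 higher genes and 1172 of the 1563 lower genes. The AP-1 motif TGACTCA was in 5.17% of the higher, 2.74% of the lower and 2.76% of the other tested windows, and in 4.46% of all windows. A match describes the letters of these windows and is not a measured binding site.

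Most CC chemokines, which attract monocytes and lymphocytes, rose as well. In that list 8 of 10 tested members were higher and 1 lower (median 4.49, or 3.81 with members at the floor set to their bound; -1.62 in LLC blood). Ccl2 (ENSMUSG00000035385), the main ligand of Ccr2, was at 8.58, 6.88 and 6.31 CPM in healthy blood, at 7.27, 3.597 and 3.77 CPM in LLC blood and at 599, 403 and 393 CPM in tumor (log2 fold change 6.21 ± 0.35 SE, adjusted p 7.25e-07). Ccl7 (ENSMUSG00000035373), another Ccr2 ligand, was at 2.22, 0.369 and 0.736 CPM in healthy blood and at 122, 107 and 80.96 CPM in tumor (log2 fold change 6.78 ± 0.48 SE, adjusted p 2.66e-06). For both genes the groups did not overlap, and tumor 1 was the highest library. Ccl5 (ENSMUSG00000035042), a T cell and monocyte attractant that NK and T cells also make, went the other way, at 70.8, 87.2 and 131 CPM in healthy blood, at 4.88, 8.78 and 10.6 CPM in LLC blood and at 9.3, 1.15 and 4.41 CPM in tumor (log2 fold change -4.06 ± 0.59 SE, adjusted p 0.000231). In LLC blood Ccl5 was already down by most of the net amount (share 81.1% ± 12.9, SD over the LLC blood libraries, n = 3). Cxcl10 (ENSMUSG00000034855), an interferon-induced T cell attractant, was at 28.5, 31.5 and 29.98 CPM in healthy blood, at 6.503, 3.53 and 3.82 CPM in LLC blood and at 228, 40.1 and 85.1 CPM in tumor (log2 fold change 2.24 ± 0.58 SE, adjusted p 0.00739). Its LLC blood libraries all lay below the healthy ones (-2.77 ± 0.67 SE, adjusted p 0.0164), while the tumor libraries all lay above them, with a wide spread.

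Receptors changed in both directions. Of the 19 genes of the receptor list 18 were tested, 10 of them higher and 4 lower (median 1.02, or 1.64 without healthy blood 2 and 1.54 with the replicate block). Of all tested genes 33.5% were higher and 33% lower. C3ar1 (ENSMUSG00000040552), the receptor of the complement fragment C3a, was at 6.43, 4.73 and 5.395 CPM in healthy blood, at 4.399, 5.53 and 3.43 CPM in LLC blood and at 549, 379 and 347 CPM in tumor (log2 fold change 6.48 ± 0.32 SE, adjusted p 3.57e-07). It was higher in each tumor library than in any blood library. S1pr5 (ENSMUSG00000045087), a sphingosine phosphate receptor known from NK cells and patrolling monocytes, was at 83.3, 82.3 and 87.1 CPM in healthy blood, at 49.9, 24.9 and 29.7 CPM in LLC blood and at 1.17, 1.15 and 1.73 CPM in tumor (log2 fold change -5.78 ± 0.31 SE, adjusted p 5.64e-07). Ccr2, the receptor for Ccl2 and Ccl7, had a log2 fold change of -0.53 (adjusted p 0.0448) at 1455, 2007 and 2093 CPM in healthy blood and 1309, 1018 and 1031 CPM in tumor. Cx3cr1, the fractalkine receptor of patrolling monocytes, was at 487, 498 and 557 CPM in healthy blood and 112, 81.6 and 77.2 CPM in tumor (log2 fold change -2.31, adjusted p 2.2e-05). Ccr2 and Cx3cr1 were named after their values had been seen.

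Cytokines of innate inflammation rose together with an inhibitor of interleukin 1. Of the 19 genes of the cytokine list 13 were tested, 10 of them higher and 1 lower (median 3.85, and -0.60 in LLC blood, where 0 were higher and 2 lower). Il1b (ENSMUSG00000027398), the secreted interleukin 1 that raises inflammation, was at 59.5, 72.4 and 58.1 CPM in healthy blood, at 63.02, 63.2 and 85.3 CPM in LLC blood and at 2161, 1186 and 1467 CPM in tumor (log2 fold change 4.88 ± 0.32 SE, adjusted p 1.72e-06). Il1a (ENSMUSG00000027399), its membrane-bound relative, was at 0.329, 0.256 and 0.381 CPM in healthy blood and at 94.4, 29.8 and 26.3 CPM in tumor (log2 fold change 7.50 ± 0.80 SE, adjusted p 3.35e-05). Osm (ENSMUSG00000058755), oncostatin M of the interleukin 6 family, was at 9.08, 8.72 and 11.8 CPM in healthy blood, at 15.6, 6.02 and 4.59 CPM in LLC blood and at 1006, 903 and 901 CPM in tumor (log2 fold change 6.75 ± 0.44 SE, adjusted p 1.48e-06). The healthy and LLC blood libraries overlapped for Il1b and Osm, and every tumor library lay above them. Il1a had counts split with other genes in 8 libraries. Il1rn, the natural antagonist of interleukin 1, was called higher too, with a log2 fold change of 3.85 (adjusted p 1.77e-05) at 417, 176 and 229.8 CPM in tumor. Il6 and Il10 passed the test with log2 fold changes of 6.39 and 4.79, but reached only 6.47 to 7.95 and 1.33 to 8.67 CPM in tumor. Tgfb1, at 575, 488 and 554 CPM in healthy blood and 435, 413 and 492 CPM in tumor, was not called (log2 fold change -0.09, adjusted p 0.494). The last 4 genes were named after their values had been seen.

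Growth and angiogenic factors rose widely. Of the 18 genes of that list 16 were tested, 14 of them higher and 0 lower. The list had a median of 6.98, or 5.86 with members at the floor set to their bound. Its median in LLC blood was -0.28. Thbs1 (ENSMUSG00000040152), the matrix protein thrombospondin 1 that acts on vessels and activates TGF-beta, was at 131, 80.6 and 97.9 CPM in healthy blood, at 201, 101 and 173 CPM in LLC blood and at 24854, 23644 and 24772 CPM in tumor (log2 fold change 8.07 ± 0.37 SE, adjusted p 2.89e-07). Its 3 tumor libraries lay close together, far above both blood groups. Vegfa (ENSMUSG00000023951), the main vessel growth factor, was at 2.79, 1.78 and 2.15 CPM in healthy blood, at 4.78, 0.484 and 0.918 CPM in LLC blood and at 1193, 904 and 911 CPM in tumor (log2 fold change 9.01 ± 0.60 SE, adjusted p 1.72e-06). Spp1 (ENSMUSG00000029304), osteopontin, was at 22.7, 5.84 and 8.58 CPM in healthy blood, at 9.75, 9.68 and 8.07 CPM in LLC blood and at 2309.9, 2129 and 1981 CPM in tumor (log2 fold change 7.63 ± 0.51 SE, adjusted p 1.73e-06). For each of the 3 the LLC blood libraries overlapped the healthy ones. Inhba (ENSMUSG00000041324), the activin A subunit, was at 0.0715, 0 and 0.0613 CPM in healthy blood, at 0.383, 0.138 and 0.145 CPM in LLC blood and at 55.98, 47.8 and 46.8 CPM in tumor. With 2 counts in all healthy libraries and 1701 in tumor, its ratio was 1168 (exact 95% interval 322.7 to 9649, counting error only; adjusted p 1.41e-07). No healthy library held more than a single Inhba count. Hgf passed the test with a log2 fold change of 0.70, and Vegfc (log2 fold change 0.70, adjusted p 0.228) and Pdgfb (log2 fold change -0.64, adjusted p 0.111) did not; these 3 were named after their values had been seen.

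Of the proteases and protease inhibitors that act on the matrix, 19 of 20 tested members were higher and 0 lower (median 4.82, or 4.08 with members at the floor set to their bound). Mmp13 (ENSMUSG00000050578), a collagenase, was at 0.643, 0.184 and 0.613 CPM in healthy blood and at 163, 119 and 115 CPM in tumor (log2 fold change 8.31 ± 0.40 SE, adjusted p 3.38e-07). Mmp3 (ENSMUSG00000043613), stromelysin 1, was at 0.858, 0.0614 and 0.429 CPM in healthy blood and at 38.3, 115 and 165 CPM in tumor (log2 fold change 8.03 ± 0.66 SE, adjusted p 6.7e-06). Adamts1 (ENSMUSG00000022893), an aggrecanase, was at 0.286, 0.0614 and 0 CPM in healthy blood and at 11.3, 64.1 and 60.6 CPM in tumor (log2 fold change 8.70 ± 0.96 SE, adjusted p 3.97e-05). Mmp13 was highest in tumor 1, where fibroblast markers were lowest, while Mmp3 and Adamts1 were lowest there. In this list 6 of the 19 members raised at least 2-fold had less than 0.5 of the tumor 2 and 3 mean in tumor 1.

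Of the 12 largest rises, 5 were genes of matrix proteins, Dcn, Lum, Thbs2, Dpt and Col1a2, and all 5 were lowest in tumor 1 among the tumor libraries. Dcn (ENSMUSG00000019929, decorin), Lum (ENSMUSG00000036446, lumican) and Thbs2 (ENSMUSG00000023885, thrombospondin 2) were at 108, 263 and 314, at 83.5, 172 and 232 and at 45.6, 282 and 209 CPM in tumor 1, 2 and 3. In healthy blood they were at 0.858, 0.246 and 0.184, at 0.5003, 0.184 and 0.368 and at 0.572, 0.123 and 0.307 CPM. Their log2 fold changes were 9.22 (adjusted p 1.46e-05), 8.98 (adjusted p 4.92e-06) and 9.17 (adjusted p 6.9e-05). Dpt (ENSMUSG00000026574, dermatopontin) was at 0.214, 0.0614 and 0 CPM in healthy blood and 24.3, 67.3 and 83.8 CPM in tumor, a ratio of 685.7 over 4 and 1998 counts (exact 95% interval 267.4 to 2519; adjusted p 3.92e-06). Col1a2 (ENSMUSG00000029661, a chain of type I collagen) was at 0.214, 0.0614 and 0.123 CPM in healthy blood, at 131, 0.0692 and 0.145 CPM in LLC blood and at 7.13, 82.2 and 103 CPM in tumor, a ratio of 503.2 over 6 and 2199 counts (interval 230.8 to 1373; adjusted p 0.0192). The single high blood library for Col1a2 was LLC blood 1, the one with high fibroblast markers. The call of Col1a2 was lost when any healthy library was left out (adjusted p 0.0578 to 0.0627). These are fibroblast genes by textbook knowledge, 3 of them members of the fibroblast marker list, and the part of fibroblast RNA was not tested.

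Glycolysis and the hypoxia response rose broadly. Of the glycolysis list 20 of 22 tested members were higher and 1 lower (median 2.19; 0.15 in LLC blood, where 0 were higher and 1 lower). Slc2a1 (ENSMUSG00000028645), the glucose transporter GLUT1, was at 35.7, 38.03 and 39.3 CPM in healthy blood, at 48.8, 53.7 and 50.3 CPM in LLC blood and at 1445, 1087 and 1198 CPM in tumor (log2 fold change 5.24 ± 0.20 SE, adjusted p 1.41e-07). Tpi1 (ENSMUSG00000023456), triosephosphate isomerase, was at 132, 135 and 148 CPM in healthy blood, at 157, 160.5 and 154 CPM in LLC blood and at 1487, 998 and 1074 CPM in tumor (log2 fold change 3.31 ± 0.22 SE, adjusted p 1.83e-06). Slc16a1 (ENSMUSG00000032902), a lactate transporter, was at 2.64, 4.3 and 4.11 CPM in healthy blood and 38.3, 90.1 and 77.8 CPM in tumor (log2 fold change 4.34 ± 0.30 SE, adjusted p 2.34e-06). The groups did not overlap for any of the 3, and each LLC blood library lay much closer to healthy blood than to tumor. Pfkfb4 was the lower member of the list (log2 fold change -1.07, adjusted p 0.000141). Of the hypoxia list 21 of 23 tested members were higher and 0 lower (median 3.06; -0.17 in LLC blood). Ak4 (ENSMUSG00000028527), a mitochondrial adenylate kinase, was at 0.429, 0.246 and 0.123 CPM in healthy blood and 47.04, 48.6 and 42.8 CPM in tumor (log2 fold change 7.61 ± 0.45 SE, adjusted p 8.74e-07). Hif1a itself was at 105, 135 and 118 CPM in healthy blood and 897, 863 and 819 CPM in tumor (log2 fold change 3.03, adjusted p 3.62e-07), while Car9 was not called (log2 fold change 0.13, adjusted p 0.653). Pfkfb4, Hif1a and Car9 were named after their values had been seen.

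The promoter of Slc2a1 is shown because this gene had the largest rise of the glycolysis list and its window holds the core letters of hypoxia response elements. The line gives the 250 bases before the start site from RefSeq (GRCm38.p6, chr4:119108495-119108744, plus strand), with the core matches in capitals.
Slc2a1: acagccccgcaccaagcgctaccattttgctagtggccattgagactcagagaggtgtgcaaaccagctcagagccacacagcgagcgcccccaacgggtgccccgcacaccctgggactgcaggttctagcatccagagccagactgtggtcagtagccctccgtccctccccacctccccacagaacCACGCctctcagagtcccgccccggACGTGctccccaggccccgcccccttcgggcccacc
The core, ACGTG or GCGTG on either strand, was matched 61 and 36 bases before the start site. This short core was in 38.6% of all windows, in 54.5% of the windows of genes at least 2-fold higher, in 45.2% of those lower and in 57.4% of those of the other tested genes.

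Genes of mitochondrial respiration and of the ribosome stayed near their healthy levels, and those called were mostly lower. Of all tested genes 33.5% were higher and 33% lower. Of the respiratory chain subunits, 2 of 31 tested members were higher and 10 lower, with a median of -0.20 (-0.31 without tumor 1, -0.11 without tumor 2, -0.37 with library totals) and no member past 2-fold. Ndufa4 (ENSMUSG00000029632) was at 99.1, 109 and 114 CPM in healthy blood and 64.01, 63.9 and 67.1 CPM in tumor (log2 fold change -0.54 ± 0.10 SE, adjusted p 0.000872). Ndufb10 and Ndufb5, likewise complex I subunits, had log2 fold changes of -0.53 (adjusted p 0.00171) and -0.56 (adjusted p 0.00299). Of the cytosolic ribosomal proteins, 2 of 53 tested members were higher and 20 lower, with a median of -0.21 (-0.33 without tumor 1, -0.39 with library totals), again with no member past 2-fold. In LLC blood this list stood lower than in tumor, with a median of -0.48 against healthy blood, where 0 were higher and 46 lower. Rps24 was at 1005, 1127 and 1234 CPM in healthy blood, at 782, 665 and 700.3 CPM in LLC blood and at 722, 684 and 684 CPM in tumor (log2 fold change -0.50 ± 0.14 SE, adjusted p 0.00873). In both lists more members had tumor libraries entirely below the healthy ones on the CPM scale (22 of 31 and 48 of 53) than were called after TMM scaling. On that CPM scale 43.7% of all tested genes had tumor libraries entirely below the healthy ones, and 26.9% entirely above.

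Arginine metabolism was raised at both of its competing enzymes. In the list 11 of 13 tested members were higher and 0 lower (median 1.49). Arg1 (ENSMUSG00000019987), the arginase that turns arginine into ornithine, was at 15.01, 4.61 and 7.17 CPM in healthy blood, at 6.69, 2.91 and 2.801 CPM in LLC blood and at 2581, 1756 and 1333 CPM in tumor (log2 fold change 7.95 ± 0.59 SE, adjusted p 3.54e-06). Nos2 (ENSMUSG00000020826), the inducible nitric oxide synthase, was at 0.286, 0.0614 and 0.613 CPM in healthy blood, at 0.383, 0.0692 and 0.0483 CPM in LLC blood and at 152, 228 and 216 CPM in tumor (log2 fold change 9.39 ± 0.34 SE, adjusted p 1.23e-07). Slc7a2 (ENSMUSG00000031596), a cationic amino acid transporter, was at 1.43, 0.922 and 1.16 CPM in healthy blood and 77.1, 75.8 and 41.1 CPM in tumor (log2 fold change 5.98 ± 0.39 SE, adjusted p 1.68e-06). In each of the 3 genes the tumor libraries stood apart from all blood libraries, and LLC blood was not called against healthy blood.

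Macrophage maturation genes rose in tumor, while those called in LLC blood were mostly lower. Of the 26 genes of that list 22 were tested, 19 of them higher and 1 lower (median 4.26). In LLC blood 1 was higher and 7 lower, with a median of -0.48. Of the 22 members, 6 were called higher in the net comparison and lower in LLC blood, C1qa, C1qb, C1qc and Mrc1 among them. For comparison, 118 of the 2426 genes at least 2-fold higher in tumor (4.86%) were called lower in LLC blood. The count of 6 used no 2-fold rule. Mrc1, the mannose receptor, was at 26.4, 16.7 and 22.5 CPM in healthy blood, at 8.42, 6.29 and 6.13 CPM in LLC blood and at 396, 496 and 282 CPM in tumor (log2 fold change 4.34, adjusted p 8.96e-07). C1qa, a chain of complement C1q, was at 10.7, 8.42 and 3.13 CPM in healthy blood, at 2.01, 1.38 and 1.88 CPM in LLC blood and at 192, 245 and 136 CPM in tumor (log2 fold change 4.87, adjusted p 5.68e-06). For both genes LLC blood lay at or below the low end of healthy blood and tumor above all of them. Stab1 (ENSMUSG00000042286), the scavenger receptor stabilin 1, was at 11.6, 4.67 and 4.84 CPM in healthy blood, at 3.73, 4.01 and 2.32 CPM in LLC blood and at 357, 455 and 365 CPM in tumor (log2 fold change 5.98 ± 0.34 SE, adjusted p 7.65e-07). Cd63 (ENSMUSG00000025351), a lysosomal tetraspanin, was at 3.72, 1.17 and 1.35 CPM in healthy blood, at 1.72, 1.52 and 1.26 CPM in LLC blood and at 82.97, 144 and 138 CPM in tumor (log2 fold change 6.05 ± 0.35 SE, adjusted p 8.16e-07). Adgre1, which encodes the macrophage antigen F4/80, was the lower member, at 289.8, 294 and 298 CPM in healthy blood and 212, 196 and 164 CPM in tumor (log2 fold change -0.43, adjusted p 0.0245). Apoe and Cd163 were not called, with log2 fold changes of -0.30 (adjusted p 0.307) and 0.58 (adjusted p 0.0941). C1qa, C1qb, C1qc, Mrc1, Adgre1, Apoe and Cd163 were named after their values had been seen.

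Monocyte identity genes were mostly lower. Of the classical monocyte list 3 of 21 tested members were higher and 15 lower (median -1.22), and of the nonclassical list 4 of 20 tested members were higher and 13 lower (median -1.50), so the lists of both blood subsets moved the same way. Itga4 (ENSMUSG00000027009), the integrin alpha 4 chain used to adhere to vessels, was at 1056, 1003 and 978 CPM in healthy blood, at 1265, 1420.0 and 1561 CPM in LLC blood and at 163, 183 and 201 CPM in tumor (log2 fold change -2.30 ± 0.11 SE, adjusted p 3.38e-07). Cd177 (ENSMUSG00000052212), a surface glycoprotein known from neutrophils, was at 409, 343 and 347 CPM in healthy blood, at 273, 189 and 207 CPM in LLC blood and at 67.4, 49.9 and 61.95 CPM in tumor (log2 fold change -2.42 ± 0.21 SE, adjusted p 7.77e-06). Itga4 was higher in LLC blood than in healthy blood and Cd177 lower, and both were lowest in tumor. Vcan (ENSMUSG00000021614), the proteoglycan versican, ran against its list, at 158, 206 and 156 CPM in healthy blood, at 613, 1059.9 and 1053 CPM in LLC blood and at 1395, 1917 and 1786 CPM in tumor (log2 fold change 3.46 ± 0.22 SE, adjusted p 1.53e-06). LLC blood already held 67.2% ± 13.03 (SD, n = 3) of its net rise. Adgre4 (ENSMUSG00000032915), an adhesion receptor of nonclassical monocytes, was at 345, 364 and 398 CPM in healthy blood and 59.6, 36.96 and 60.7 CPM in tumor (log2 fold change -2.62 ± 0.23 SE, adjusted p 1.03e-05). Cd9 (ENSMUSG00000030342), a tetraspanin, was at 16.6, 27.9 and 22.6 CPM in healthy blood, at 8.61, 13.3 and 12.9 CPM in LLC blood and at 515, 405 and 401 CPM in tumor (log2 fold change 4.49 ± 0.27 SE, adjusted p 9.34e-07) and ran against the nonclassical list. Clec4e, the receptor Mincle for damage and microbial lipids, was likewise higher (log2 fold change 3.30, adjusted p 4.07e-06).

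Among transcription factors the AP-1 list was mostly higher, while the NF-kB and myeloid lineage lists went both ways. Of all tested genes 33.5% were higher and 33% lower. Of the AP-1 and immediate early factors, 15 of 22 tested members were higher and 2 lower (median 1.93; -0.69 in LLC blood, where 1 was higher and 5 lower). Ier3 (ENSMUSG00000003541), an early response gene, was at 5.503, 7.19 and 8.15 CPM in healthy blood, at 10.7, 13.3 and 12.8 CPM in LLC blood and at 507, 678 and 674 CPM in tumor (log2 fold change 6.63 ± 0.16 SE, adjusted p 2.94e-08). Maff (ENSMUSG00000042622), a small Maf protein, was at 0.929, 0.614 and 1.53 CPM in healthy blood and 91.1, 46.98 and 49.9 CPM in tumor (log2 fold change 6.14 ± 0.46 SE, adjusted p 3.92e-06). Egr2, another immediate early factor, had a log2 fold change of 4.87 (adjusted p 9.24e-06). Of the NF-kB subunits and inhibitors, 9 of 19 tested members were higher and 5 lower; their median of 0.16 changed sign in 3 of 19 alternatives and was -0.09 without tumor 1, 0.33 without tumor 2 and 0.08 without healthy blood 3. The raised members included feedback inhibitors. Tnfaip3 (ENSMUSG00000019850), which ends NF-kB signals, was at 50.4, 47.7 and 47.1 CPM in healthy blood, at 40.5, 26.9 and 26.6 CPM in LLC blood and at 793, 242 and 311 CPM in tumor (log2 fold change 3.47 ± 0.49 SE, adjusted p 0.000202). Nfkbia and Nfkbiz, also feedback genes of the pathway, rose with log2 fold changes of 2.69 (adjusted p 0.000106) and 2.09 (adjusted p 0.000432). Tumor 1 was the highest library for all 3 and the 3 tumor libraries spread widely.

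Of the myeloid lineage factors 10 of 26 tested members were higher and 12 lower, against 33.5% and 33% of all tested genes. The median of -0.01 changed sign in 4 of 19 alternatives, between -0.27 without tumor 1 and 0.25 with recovered reads. Runx3 (ENSMUSG00000070691) was at 61.2, 57.1 and 55.7 CPM in healthy blood and 382, 321 and 359 CPM in tumor (log2 fold change 2.80 ± 0.14 SE, adjusted p 4.52e-07). Irf4 (ENSMUSG00000021356), a factor of dendritic cells and lymphocytes, was at 115, 102 and 99.3 CPM in healthy blood, at 75.3, 68.3 and 71.5 CPM in LLC blood and at 8.397, 4.79 and 4.84 CPM in tumor (log2 fold change -3.94 ± 0.25 SE, adjusted p 1.26e-06). Tumor and healthy blood did not overlap for either gene, and the LLC blood libraries overlapped the healthy ones for Runx3.

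**Figure D4:**
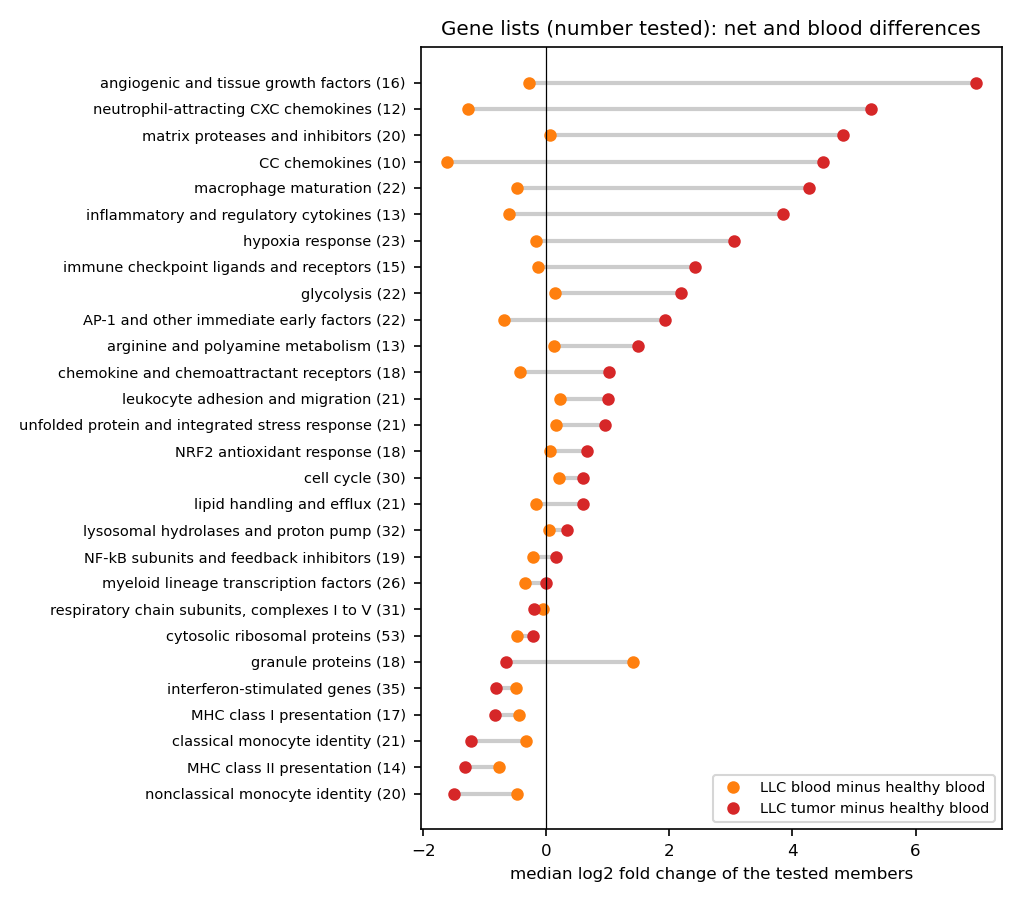
Median log2 fold change of the tested members of each gene list, LLC tumor minus healthy blood in red and LLC blood minus healthy blood in orange, with the number of tested members in brackets; the 2 differences share the healthy blood libraries. Red points reach 6.98 for growth factors and -1.50 for nonclassical monocyte identity, while orange points lie between -1.62 for CC chemokines and 1.42 for granule proteins.

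Interferon and antigen presentation genes were lower as groups, with exceptions. Of the interferon-stimulated genes, 1 of 35 tested members was higher and 21 lower (median -0.81, or -0.51 without tumor 2; -0.49 in LLC blood, where 0 were higher and 5 lower). Sp100 (ENSMUSG00000026222), a nuclear body protein, was at 376, 397 and 380.3 CPM in healthy blood and 144, 121 and 151 CPM in tumor (log2 fold change -1.28 ± 0.13 SE, adjusted p 2.55e-05). Rsad2 (ENSMUSG00000020641), the antiviral enzyme viperin, was the raised member, at 81.3, 69.2 and 83.7 CPM in healthy blood, at 48.96, 28.5 and 31.8 CPM in LLC blood and at 469, 87.8 and 216 CPM in tumor (log2 fold change 1.98 ± 0.55 SE, adjusted p 0.0102). Its tumor libraries spanned a wide range with tumor 1 highest. The MHC class I list had 1 member higher and 15 lower of 17 (median -0.84); Erap1, a peptide-trimming enzyme, was the higher one, named after its value had been seen. Psmb9 (ENSMUSG00000096727), an immunoproteasome subunit, was at 104, 119.9 and 121 CPM in healthy blood and 48.1, 32.2 and 41.4 CPM in tumor (log2 fold change -1.31 ± 0.19 SE, adjusted p 0.0002). Psmb10, another such subunit, had a log2 fold change of -1.13 (adjusted p 0.000171). H2-Q7, a nonclassical class I gene with counts split in all 9 libraries, was at 65.3, 119.9 and 133 CPM in healthy blood and 51.7, 16.8 and 26.8 CPM in tumor (log2 fold change -1.50, adjusted p 0.0124). In the MHC class II list 2 of 14 tested members were higher and 11 lower (median -1.32; -0.78 in LLC blood), and the raised members were the costimulatory ligands of T cells. Cd80 (ENSMUSG00000075122) was at 12.6, 12.8 and 8.22 CPM in healthy blood and 143, 105 and 121 CPM in tumor (log2 fold change 3.65 ± 0.24 SE, adjusted p 1.71e-06). Cd86 (ENSMUSG00000022901) was at 39.8, 37.04 and 40.04 CPM in healthy blood and at 172, 119 and 131 CPM in tumor (log2 fold change 2.06 ± 0.20 SE, adjusted p 1.67e-05). Cd80 and Cd86 were not called in LLC blood against healthy blood, while Cd74, the invariant chain, was already down there (share 103% ± 24.8, SD, n = 3).

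Most genes of the immune checkpoint ligand and receptor list were raised. Of the 17 genes of that list 15 were tested, 11 of them higher and 1 lower (median 2.42). Cd274 (ENSMUSG00000016496), the ligand PD-L1 of the receptor PD-1, was at 18.2, 27.9 and 21.4 CPM in healthy blood, at 20.2, 17.7 and 15.8 CPM in LLC blood and at 417, 306 and 355 CPM in tumor (log2 fold change 4.19 ± 0.23 SE, adjusted p 6.86e-07). Nt5e (ENSMUSG00000032420), the ectonucleotidase CD73 that makes adenosine, was at 0.572, 1.78 and 0.858 CPM in healthy blood and 128, 80.04 and 75.6 CPM in tumor (log2 fold change 6.64 ± 0.46 SE, adjusted p 2.33e-06). Both genes had no overlap between the groups. Sirpa, the receptor of CD47, was the lower member (log2 fold change -0.56, adjusted p 0.00165), named after its value had been seen.

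Stress response genes mostly rose, and the redox, lipid and lysosome lists held strong rises beside members that fell. Of all tested genes 33.5% were higher and 33% lower. Of the NRF2 antioxidant genes 10 of 18 tested members were higher and 5 lower (median 0.67, or 0.32 without tumor 1). Slc7a11 (ENSMUSG00000027737), the cystine importer, was at 2.03, 2.38 and 2.12 CPM in healthy blood, at 3.997, 5.08 and 4.88 CPM in LLC blood and at 205, 214 and 191 CPM in tumor (log2 fold change 6.71 ± 0.15 SE, adjusted p 2.94e-08). Srxn1 and Hmox1, sulfiredoxin and heme oxygenase, rose with log2 fold changes of 3.66 (adjusted p 5e-08) and 3.06 (adjusted p 6.91e-06). Of the unfolded protein and integrated stress genes 18 of 21 tested members were higher and 1 lower (median 0.96); Atf3, a stress-induced factor, was at 114, 87.4 and 94.4 CPM in healthy blood and 1070.5, 587 and 554 CPM in tumor (log2 fold change 3.13, adjusted p 3.77e-05). Ppp1r15a and Sesn2, feedback genes of the same response, had log2 fold changes of 2.67 (adjusted p 0.00189) and 1.93 (adjusted p 3.55e-06). Of the lipid genes 13 of 21 tested members were higher and 3 lower (median 0.59). Abca1 (ENSMUSG00000015243), the cholesterol exporter, was at 14.3, 13.1 and 9.93 CPM in healthy blood, at 9.75, 7.47 and 9.27 CPM in LLC blood and at 514, 472 and 409 CPM in tumor (log2 fold change 5.41 ± 0.21 SE, adjusted p 1.65e-07). Fabp5, a fatty acid binding protein, was at 29.4, 30.5 and 33.2 CPM in healthy blood and 306, 205 and 265 CPM in tumor (log2 fold change 3.26, adjusted p 1.58e-06). Lpl (ENSMUSG00000015568), lipoprotein lipase, was at 212, 134 and 222 CPM in healthy blood, at 22.4, 19.02 and 16.9 CPM in LLC blood and at 17.97, 11.97 and 8.38 CPM in tumor (log2 fold change -3.69 ± 0.33 SE, adjusted p 1.16e-05), and LLC blood held 87.7% ± 5.33 (SD, n = 3) of its fall. Of the lysosomal genes 16 of 32 tested members were higher and 8 lower (median 0.34, or 0.14 without tumor 1 and 0.15 with library totals). Ctsl (ENSMUSG00000021477), cathepsin L, was at 37.9, 38.7 and 39.6 CPM in healthy blood, at 51.4, 77.9 and 70.8 CPM in LLC blood and at 942, 1274 and 1087 CPM in tumor (log2 fold change 4.99 ± 0.16 SE, adjusted p 1.12e-07), far above every blood library. Lgmn, the lysosomal protease legumain, was at 173, 166 and 157 CPM in healthy blood and 1311, 869 and 846 CPM in tumor (log2 fold change 2.82, adjusted p 6.95e-06). Gla, alpha-galactosidase A, had a log2 fold change of 3.35 (adjusted p 1.01e-05).

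Adhesion, granule and cell cycle lists were mixed. Of the adhesion genes 14 of 21 tested members were higher and 7 lower (median 1.00); Itga6, the integrin alpha 6 chain, was at 6.503, 10.4 and 8.15 CPM in healthy blood and 53.2, 88.2 and 61.6 CPM in tumor (log2 fold change 3.17, adjusted p 1.12e-06). Cd24a, a surface sialoglycoprotein, was at 10.1, 23.2 and 13.5 CPM in healthy blood and 158, 92.7 and 89.2 CPM in tumor (log2 fold change 3.08, adjusted p 8.25e-05). Of the granule proteins 2 of 18 tested members were higher and 7 lower, against 33.5% and 33% of all tested genes (median -0.66). In LLC blood the same list stood at 1.42, where 8 were higher and 3 lower, and the tumor median was -0.08 without healthy blood 2, -1.15 without healthy blood 1, -1.002 without healthy blood 3 and -1.36 without tumor 2. Pglyrp1, a peptidoglycan recognition protein of granules, was at 51.4, 50.2 and 43.3 CPM in healthy blood, at 41.4, 29.6 and 30.6 CPM in LLC blood and at 9.39, 8.07 and 7.78 CPM in tumor (log2 fold change -2.34, adjusted p 5.1e-06). Mmp9 (ENSMUSG00000017737), gelatinase B, was at 1.79, 16.1 and 0.797 CPM in healthy blood and 33.9, 88.4 and 45.97 CPM in tumor (log2 fold change 3.29 ± 0.86 SE, adjusted p 0.00768), with healthy blood 2 far above the other healthy libraries. Of the cell cycle genes 10 of 30 tested members were higher and 2 lower (median 0.59), where 33.5% of all genes were higher and 33% lower. That median was 0.21 without healthy blood 1, 1.13 without healthy blood 3 and 0.34 without tumor 3. For the 8 members raised at least 2-fold, tumor 1 was at a median of 0.499 of the tumor 2 and 3 mean. This ratio, on CPM before TMM scaling, was under 0.5 for 4 of the 8. Cdkn1a (ENSMUSG00000023067), the cell cycle inhibitor p21, was at 42.6, 37.2 and 35.3 CPM in healthy blood, at 33.9, 38.8 and 35.4 CPM in LLC blood and at 664, 607 and 595 CPM in tumor (log2 fold change 4.21 ± 0.15 SE, adjusted p 1.23e-07). Ccnd3 (ENSMUSG00000034165), cyclin D3, was at 482, 449.9 and 442 CPM in healthy blood and 119, 129.9 and 153 CPM in tumor (log2 fold change -1.60 ± 0.09 SE, adjusted p 8.17e-07). Ccnd1, cyclin D1, was at 4.65, 5.53 and 5.82 CPM in healthy blood and 27, 69.9 and 55.9 CPM in tumor (log2 fold change 3.38, adjusted p 4.84e-06). Mki67, a marker of dividing cells, was not called (log2 fold change 0.67, adjusted p 0.34) and was named after its value had been seen. Counts of Itga4, Sp100, Slc7a11 and Ccnd3 were split with other genes in all 9 libraries, and those of Vcan in 5.

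Among the largest falls, after Pira1, were genes of NK cells and red cells. Gzma (ENSMUSG00000023132), Gzmb (ENSMUSG00000015437) and Nkg7 (ENSMUSG00000004612), parts of cytotoxic granules, were at 86.3, 138 and 226, at 27.7, 52.6 and 107 and at 25.6, 42.4 and 65.97 CPM in healthy blood 1, 2 and 3. In tumor they were at 0.361, 1.06 and 0.346, at 0.903, 1.596 and 0.605 and at 0.181, 0.6205 and 0.0864 CPM. Their log2 fold changes were -7.81 (adjusted p 2.33e-06), -5.75 (adjusted p 3.8e-05) and -7.04 (adjusted p 7.7e-06), and all 3 were highest in healthy blood 3. Ncr1 and Klra8, receptors of NK cells, held 565 and 573 counts in healthy blood and 1 and 2 in tumor, ratios of 411.6 (exact 95% interval 73.6 to 16280.0) and 208.7 (57.5 to 1727). Gimap4, a lymphocyte GTPase, had a log2 fold change of -5.75 (adjusted p 3.03e-05). Hemoglobin genes Hba-a1, Hbb-bs and Hba-a2 had log2 fold changes of -8.30 (adjusted p 6.97e-05), -7.55 (adjusted p 0.000113) and -6.65 (adjusted p 0.000536); their counts were split with other genes in 7 libraries each. All 9 NK markers and all 5 tested erythroid markers were lower in tumor, as given above for their sums. Hpgd, Nat8l and BC035044 are not on any marker list and were at steady levels in healthy blood. Hpgd (ENSMUSG00000031613), which breaks down prostaglandins, was at 223, 192 and 239 CPM in healthy blood, at 72.6, 47.7 and 60.1 CPM in LLC blood and at 3.702, 3.37 and 4.49 CPM in tumor (log2 fold change -5.65 ± 0.21 SE, adjusted p 1.25e-07). Nat8l (ENSMUSG00000048142), the enzyme that makes N-acetylaspartate, was at 124, 107 and 109 CPM in healthy blood, at 114, 69.9 and 73.7 CPM in LLC blood and at 3.43, 3.72 and 4.93 CPM in tumor (log2 fold change -4.64 ± 0.23 SE, adjusted p 3.68e-07). BC035044 (ENSMUSG00000090164) was at 57.4, 61.8 and 66.3 CPM in healthy blood, at 50.3, 37.4 and 36.99 CPM in LLC blood and at 2.799, 3.63 and 3.28 CPM in tumor (log2 fold change -4.09 ± 0.15 SE, adjusted p 1.41e-07). For these 3 genes each tumor library lay far below each healthy library.

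The groups differed as on and off for 18 genes, with no more than 3 counts in any library of one group and at least 10 CPM throughout the other: 15 on in tumor and 3 off. These include Pira1, Pira7, Tgoln2 and Gm10052, whose values are uncertain as given below. Of the 15, 5 were also at the floor in LLC blood, namely Flrt3, Fosl1, Sphk1, F3 and Areg, at 22.6 to 60.9, 20.8 to 31.9, 19.8 to 22.8, 11.5 to 16.6 and 10.4 to 15.7 CPM in tumor. They encode an adhesion protein, an AP-1 subunit, sphingosine kinase 1, tissue factor and the growth factor amphiregulin, and were named after their values had been seen. Pira7, a paired immunoglobulin-like receptor, was at 0, 0 and 0 CPM in healthy blood, at 53.02, 52.02 and 60.2 CPM in LLC blood and at 34.9, 56.2 and 34.1 CPM in tumor, at least 215-fold higher in tumor against a floor of 3 counts per library. Pira1, its near-identical paralog, was at 59.6, 62.4 and 77.6 CPM in healthy blood, at 0, 0 and 0 CPM in LLC blood and at 0, 0 and 0 CPM in tumor, at least 251-fold lower. Added together, Pira1 and Pira7 reached 59.6 to 77.6 CPM in healthy blood, 52.0 to 60.2 CPM in LLC blood and 34.1 to 56.2 CPM in tumor. The 0 values of both genes fell in step with the groups. Whether this came from how counts were split between the paralogs, or from annotation or processing that differed between groups, was not tested. The single values are uncertain. Aebp1 (ENSMUSG00000020473), a matrix-associated protein of fibroblasts, was at 0.214, 0.184 and 0.0613 CPM in healthy blood and 12.4, 65.6 and 66.9 CPM in tumor, a ratio of 323.8 over 7 and 1651 counts (exact 95% interval 156.8 to 806.6).

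The share of each net change already present in LLC blood was computed as the LLC blood minus healthy blood difference over the tumor minus healthy blood difference, on TMM-scaled log2 CPM. A share of 0% means that LLC blood equalled healthy blood, 100% that it equalled tumor, and a negative share that it lay on the other side of healthy blood. Both differences use the same healthy blood libraries, so the share is a description and carries no test. The SD given with a share is over the 3 LLC blood libraries, with the healthy blood and tumor means held fixed. It leaves out the spread of the healthy blood and tumor libraries. Over the 3989 genes changed at least 2-fold the median share was 10.4%, with quartiles of -6.42% and 32.8%. Taken with each LLC blood library alone the median was 10.4%, 10.9% and 9.31%. The share lay between -25% and 25% for 2285 genes (57.3%) and between 25% and 75% for 1007 (25.2%). It was below -25% for 414 genes (10.4%) and above 75% for the rest. LLC blood had gone more than 50% of the way for 577 genes (14.5%).

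The share was also taken for higher and lower genes separately, with no test of their difference. The median share was 6.78% for the 2426 higher genes and 15.7% for the 1563 lower genes. With LLC blood 1, 2 and 3 alone it was 9.47%, 3.46% and 3.58% for higher genes and 11.5%, 18.7% and 16.3% for lower genes, so the 2 medians lay closest together with LLC blood 1. On the linear CPM scale the medians were 1.43% and 25%. Among genes whose mean was 20 CPM or more they lay close together, at 9.55% for higher and 10.9% for lower genes. The median of higher genes was 1.45% when LLC blood 1 was left out, 4.14% without healthy blood 2 and 4.03% without tumor 1. Among higher genes the median share was 18.6% for net changes of 2-fold to 4-fold, 10.7% for 4-fold to 8-fold, -0.152% for 8-fold to 16-fold, -1.7% for 16-fold to 64-fold and 1.81% beyond. Among lower genes it was 11.2%, 18.6%, 31.9%, 60.6% and 50.4% in the same 5 bins. The strongest fallers include the NK cell genes described above, whose marker sum fell from healthy blood through LLC blood to tumor, and their part was not tested. By calls, 20.4% of the higher genes (495) also rose in LLC blood, where 14% of all tested genes did, 4.86% (118) fell there, against 9.61% of all, and 74.7% (1813) did not pass the test. Of the lower genes 25% (390) also fell in LLC blood by that test, 5.05% (79) rose and 70% (1094) passed in neither direction. The comparisons share the healthy libraries, so these counts describe the genes and do not test a relation between the comparisons. A further 545 of the 12337 tested genes were not called net but were called in opposite directions in the 2 steps. The steps ran from healthy blood to LLC blood and from there to tumor. Both steps use the LLC blood libraries, with opposite sign, so error in those libraries alone favors such opposite calls. This count is therefore a description only.

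**Figure D5:**
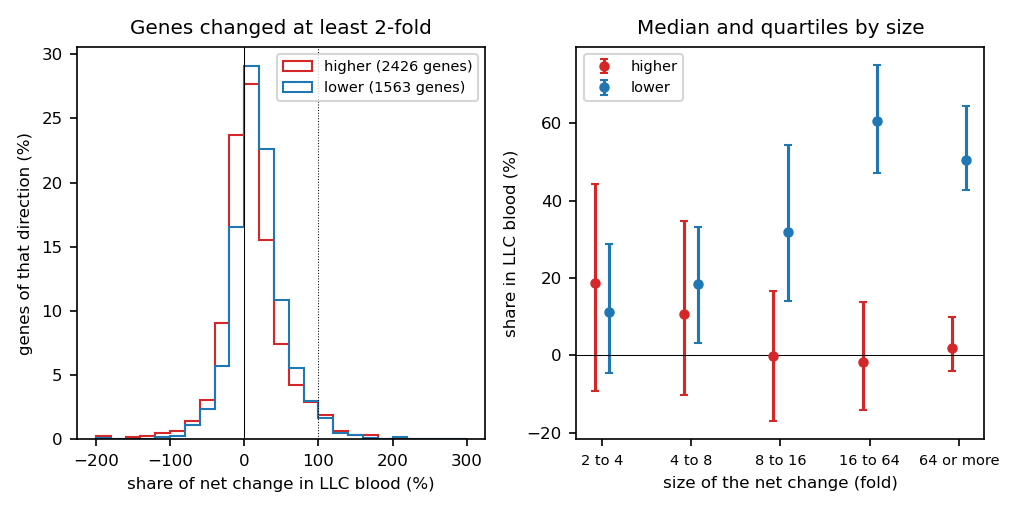
Left, distribution of the share of the net change present in LLC blood (20-point bins, outer bins collect all values beyond the axis) for the 2426 higher genes in red and the 1563 lower genes in blue. Right, median share (point) and quartiles (bars) by size of the net change; the medians fall to 1.81% for the largest rises and reach 60.6% for falls of 16-fold to 64-fold.

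For some genes LLC blood stood at the tumor level. F11r (ENSMUSG00000038235), junctional adhesion molecule A, was at 15.2, 21.6 and 12.6 CPM in healthy blood, at 54.2, 137 and 120.1 CPM in LLC blood and at 97.7, 75.7 and 78.2 CPM in tumor, a share of 100.3% ± 28.3 (SD, n = 3). Syne3 (ENSMUSG00000054150), a nuclear envelope protein, was at 33.2, 34.4 and 31.8 CPM in healthy blood, at 96.7, 133 and 115 CPM in LLC blood and at 85.1, 109 and 98.2 CPM in tumor (share 102% ± 12.9, SD, n = 3). Lnpep (ENSMUSG00000023845), a membrane aminopeptidase, was at 48.6, 49.3 and 41.5 CPM in healthy blood, at 196, 269 and 278 CPM in LLC blood and at 216, 253 and 219 CPM in tumor (share 95.8% ± 11.3, SD, n = 3). In these 3 genes the LLC blood and tumor ranges overlapped, and all of these libraries stood above healthy blood. Birc6 (ENSMUSG00000024073), an inhibitor of apoptosis, had a share of 97.05% ± 19.9 (SD, n = 3). Among lower genes, Fcgrt (ENSMUSG00000003420), the neonatal Fc receptor, was at 81.97, 70.8 and 72.4 CPM in healthy blood, at 42.1, 30.2 and 34.4 CPM in LLC blood and at 20.3, 35.9 and 37.3 CPM in tumor (share 97.6% ± 21.9, SD, n = 3). Cd74 was at 764, 1073 and 844 CPM in healthy blood, at 453, 313 and 413 CPM in LLC blood and at 406, 244 and 422 CPM in tumor, and the class II chain H2-Ab1 had a share of 112% ± 34.4 (SD, n = 3). For Fcgrt and Cd74 the LLC blood and tumor ranges overlapped too, below every healthy library. H2-K2, an MHC class I-like gene with counts split in all 9 libraries, had a share of 107% ± 48.9 (SD, n = 3); its call was lost without healthy blood 1 (adjusted p 0.0523) or tumor 3 (0.0503).

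Other genes lay on opposite sides of healthy blood in LLC blood and in tumor, with calls in both comparisons. Ets1 (ENSMUSG00000032035), a transcription factor of lymphocytes and endothelium, was at 18.01, 59.1 and 48.3 CPM in healthy blood, at 6.79, 6.92 and 8.89 CPM in LLC blood and at 134, 138 and 147 CPM in tumor, a share of -112% ± 10.9 (SD, n = 3). Egr1 (ENSMUSG00000038418), an immediate early factor, was at 39.4, 26.9 and 32.8 CPM in healthy blood, at 11.6, 2.97 and 4.59 CPM in LLC blood and at 88.3, 214 and 131 CPM in tumor (share -116% ± 44.3, SD, n = 3). Bcl2a1d (ENSMUSG00000099974), an anti-apoptotic gene with counts split in all 9 libraries, had a share of -123% ± 30.5 (SD, n = 3). Cxcl10, given above, had a share of -153% ± 26.3 (SD, n = 3). In each of these the LLC blood libraries were lowest and the tumor libraries highest. The mirror pattern was seen in Iqgap2 (ENSMUSG00000021676), a scaffold protein of the cytoskeleton, at 197, 192 and 199 CPM in healthy blood, at 344, 361 and 347 CPM in LLC blood and at 59.95, 85.1 and 78.5 CPM in tumor (share -65.6% ± 1.96, SD, n = 3). Tppp3 (ENSMUSG00000014846), a tubulin-binding protein, was at 268, 249 and 193 CPM in healthy blood, at 491, 397 and 384 CPM in LLC blood and at 97.96, 98.04 and 106 CPM in tumor (share -78.3% ± 18.5, SD, n = 3). Chml and 6330416G13Rik had shares of -74.98% ± 21.3 (SD, n = 3) and -61.5% ± 1.75 (SD, n = 3). These 4 genes were highest in LLC blood and lowest in tumor, with no overlap between the groups.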

How the data were processed

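Bulk RNA-seq counts of 9 libraries in 3 groups of 3 were used. The deposited table holds estimated counts per gene as the authors made them, of which 8.07% to 9.18% per library were not whole, and a second deposited table holds CPM made by the authors. The submitters' processing notes name STAR 2.6.1d, Salmon 1.9.0, Trim Galore, cutadapt 3.4, edgeR and mm10; which tool served which assay, and whether strand was used in counting, is not given in the sources used here. No column was left unused (0). Counts were rounded. CPM levels were computed from the counts over all 24411 entries.

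Genes kept by edgeR's filterByExpr (12337 of 18544 with a count) were fitted in R 4.3.3 with edgeR 4.0.16. The fit used TMM factors of 0.798 to 1.07, a quasi-likelihood test over all 9 libraries and Benjamini-Hochberg adjustment over all tested genes. The steps were run on simulated counts with 100 genes changed 2-fold and 100 changed 4-fold in tumor. Of these, 68% and 90% were recovered, with 1.86% false among the calls. Far fewer genes changed there than were called here, so the simulation cannot judge the TMM scaling under so broad a change. All 9 libraries were fitted together so that they share 1 estimate of the spread. The SE given with a log2 fold change is approximate. It was derived from the test, as the absolute log2 fold change divided by the square root of the F statistic. The share used log2 CPM with a prior count of 2. Alternatives used DESeq2 1.42.0, limma 3.58.1 (voom), upper-quartile factors, library totals, other filters, a threshold of 0.01, the 6 libraries alone, a replicate block and each library left out. Whole reads recovered from the CPM table served as an alternative chosen after seeing the data: 100% of its values for 10693 genes were whole within 0.01.

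Named genes were the 12 largest rises and 12 largest falls among called genes without overlap whose mean was 20 CPM or more, up to 3 members per gene list with the largest change at that level, the sorting markers, the genes with the most and the least of their change in LLC blood, and the 4 highest genes switched on or off. Some genes that this rule names are not reported here. Members given because they were not called, ran against their list or were at the floor were chosen after their values were seen. The groups compared, the gene lists and the markers were chosen with earlier results of these data known. List counts cover only members kept by the filter. A member near the floor in blood could pass it through its tumor libraries alone, and members low in every group were dropped. Promoters came from RefSeq (GRCm38.p6) by symbol. Of the called genes, 1790 (21.8%) had counts shared with other genes in at least 1 library, seen as values that were not whole.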

Additional observations from a re-analysis of the deposited data

How the results depend on the processing

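The count of called genes was 8208 and lay between 6600 (threshold of 0.01) and 9351 (limma-voom) over the alternatives in fitting, with 8186 by DESeq2, 7594 with the 6 libraries alone and 7236 of the 10520 genes tested from recovered reads. With each library left out it was 7571 to 9423. None of these alternatives called a gene in the opposite direction. Upper-quartile factors shifted the median of all genes by -0.10 and library totals by -0.17 on the log2 scale, and the share of higher calls went from 50.4% to 44.1% and 40.6%. Same-numbered healthy blood and tumor libraries deviated together with correlations of 0.0761, 0.0499 and 0.0918, and tumor 2 had 0.0558 with healthy blood 3. The same-numbered correlations were 0.297, 0.181 and 0.073 between healthy and LLC blood. Between LLC blood and tumor they were -0.078, 0.12 and -0.137. The labels give no animal, and their numbers were not taken as pairs. With a replicate block 8092 genes were called, 7926 of them among the 8208, and 4000 were changed at least 2-fold.

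The median share present in LLC blood was 10.4% for all genes changed at least 2-fold, 6.78% for higher and 15.7% for lower genes. It was 6.29%, 1.43% and 25% on the linear CPM scale, and 7.53%, 2.43% and 26.9% for genes changed at least 4-fold. For genes whose mean was 20 CPM or more it was 10.3% for all, 9.55% for higher and 10.9% for lower genes. With each library left out it ranged from 7.94% to 10.6% for all, 1.45% to 6.91% for higher and 14.1% to 21.3% for lower genes. The cause of these shifts was not tested.

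Of the 120 named genes, 112 kept their call and direction in every alternative that tested them, and none of the other 8 reversed. Hba-a2 lost its call under limma-voom (adjusted p 0.0963), Ly6c1 and H2-Eb1 with the 6 libraries alone (0.0749 and 0.0655), and Rsad2, H2-Q7 and H2-Ab1 only at the threshold of 0.01. The losses of Col1a2, H2-K2, Ly6c1 and H2-Eb1 with a library left out stand beside their values. Genes at the floor of 3 counts (0.145 to 0.287 CPM) allow bounds or ratios only.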

Other observations

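Some markers of cells other than monocytes did not move with the rest of their lists. These genes were named after their values had been seen. Among platelet markers, Pf4 (platelet factor 4) was at 3.36, 4.85 and 2.76 CPM in healthy blood, at 0.669, 0.968 and 0.435 CPM in LLC blood and at 111, 119 and 70.5 CPM in tumor (log2 fold change 4.96 ± 0.30 SE, adjusted p 1.1e-06). Ppbp, the precursor of a neutrophil-attracting chemokine, was at 1.29, 6.88 and 2.08 CPM in healthy blood, at 1.24, 2.14 and 0.966 CPM in LLC blood and at 110.4, 91.8 and 66.02 CPM in tumor (log2 fold change 4.89 ± 0.53 SE, adjusted p 3.48e-05). Itga2b, the platelet integrin alpha IIb chain, went the other way, at 2.22, 5.77 and 4.17 CPM in healthy blood and 0.722, 1.77 and 1.12 CPM in tumor (log2 fold change -1.60, adjusted p 0.013). Of the T cell markers, Il7r, the interleukin 7 receptor, was at 1.93, 7.19 and 2.64 CPM in healthy blood, at 1.24, 0.415 and 0.5795 CPM in LLC blood and at 121, 104 and 99.5 CPM in tumor (log2 fold change 4.96 ± 0.43 SE, adjusted p 8.87e-06). Cd3e, a chain of the T cell receptor complex, was at 2.93, 7.74 and 13.2 CPM in healthy blood, at 0.0956, 0.0692 and 0.241 CPM in LLC blood and at 0.271, 0.177 and 0 CPM in tumor (log2 fold change -5.50, adjusted p 0.000283). Pf4, Ppbp and Il7r were thus high in every tumor library while Itga2b stayed below 2 CPM and Cd3e was at the floor there.

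Of 9 tested dendritic cell markers 4 were lower in tumor, 1 was higher and 4 were not called (all tested genes 33% lower and 33.5% higher; median -2.36, or -1.05 without healthy blood 2). Cd209a, a lectin of monocyte-derived dendritic cells, was at 35.2, 27.8 and 41.1 CPM in healthy blood, at 7.08, 1.73 and 3.09 CPM in LLC blood and at 0.632, 0.177 and 0.346 CPM in tumor (log2 fold change -6.29 ± 0.59 SE, adjusted p 1.47e-05). Flt3, the receptor of the dendritic cell growth factor FLT3L, was at 42.5, 33.2 and 33.2 CPM in healthy blood, at 28.4, 20.3 and 18.6 CPM in LLC blood and at 2.35, 3.28 and 2.85 CPM in tumor (log2 fold change -3.51 ± 0.20 SE, adjusted p 7.81e-07). Fscn1, the actin bundler of mature dendritic cells, was at 1.64, 0.983 and 0.123 CPM in healthy blood, at 0.765, 0 and 0.145 CPM in LLC blood and at 11.2, 63.5 and 73.5 CPM in tumor (log2 fold change 5.89 ± 0.82 SE, adjusted p 0.000181). Cd209a and Flt3 were lowest in tumor, with every library below every healthy one, and Fscn1 was higher in each tumor library than in any blood library. In tumor 1 Fscn1 was at 0.163 of the tumor 2 and 3 mean, on CPM before TMM scaling. That ratio lay within the range of the fibroblast markers (0.077 to 0.414), and the cell source of Fscn1 was not tested.

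Tgoln2 and Gm10052 had no count in any healthy library, like Pira7, and their counts were split with other genes in 6 libraries, so the values and folds of both are uncertain. A difference in annotation or processing in step with the groups was not tested. Tgoln2, a protein of the trans-Golgi network, was at 23.98, 33.3 and 25.5 CPM in LLC blood and 24.4, 36.3 and 31.6 CPM in tumor, at least 158-fold higher in tumor than a floor of 3 counts per healthy library. Gm10052 was at 10.6, 40.4 and 38.4 CPM in LLC blood and 20.2, 28.6 and 40.1 CPM in tumor, at least 152-fold higher.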
